A study of Mus musculus with 79 samples.

Results

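Hemoglobin and erythroid transcripts were followed in bulk RNA sequencing of 2 brain regions, the medial prefrontal cortex (mPFC) and the ventral hippocampus (vHipp). The 5 genes were the alpha-globin genes Hba-a1 and Hba-a2, the beta-globin genes Hbb-bs and Hbb-bt, and Alas2, chosen by name for what they encode and matched to 5 of the 55471 gene identifiers in the count table. The study had 40 male wild-type CD-1 mice, an outbred stock, aged 9 to 10 weeks. CTRL mice stayed group-housed, and CSDS mice had been through 21 days of chronic social defeat stress and were returned to their cage mates after each defeat. Both were given 1 injection of saline or of ketamine (10 mg/kg), and tissue was taken 7 days later, so the 4 groups of 10 mice were CTRL saline, CTRL ketamine, CSDS saline and CSDS ketamine. The 79 libraries were 40 of the vHipp and 39 of the mPFC, with 9 mPFC libraries of ketamine-treated CSDS mice because the mPFC of mouse 5 was not analysed here. Regions were punched from frozen brains after an isoflurane overdose and collection of trunk blood, and a perfusion step is not given in the sources used here. Mice lived in 10 social groups of 4 animals, and stress was assigned to whole groups (5 CSDS and 5 CTRL). The labels used here give neither social group nor social rank. Neither was used, and the tests of stress and treatment took mice as independent.

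Hemoglobin, the oxygen carrier of red blood cells, is a tetramer of alpha and beta chains, each holding a heme group. Mammalian red blood cells lose their nucleus as they mature, and the youngest circulating ones, the reticulocytes, still carry globin mRNA. Alas2 encodes the erythroid form of 5-aminolevulinate synthase, the first enzyme of heme synthesis, while Alas1 is the form used by other cells. In brain tissue, hemoglobin transcripts are known mainly from blood held in the vessels, and they have also been described in neurons and glia.

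The members lie in 3 places of the genome (GRCm38). Hba-a1 (chr11:32283511-32284465, plus strand) and Hba-a2 (chr11:32296489-32297298, plus strand) are neighbours, as are Hbb-bs (chr7:103826534-103828096, minus strand) and Hbb-bt (chr7:103812524-103813996, minus strand), and Alas2 is on the X chromosome (chrX:150547375-150570638, plus strand). The paralogs of each pair are nearly identical in coding sequence, which bears on every statement about one of them alone. Over 426 coding bases, Hba-a1 and Hba-a2 differed at 1 base, and over 441 coding bases Hbb-bs and Hbb-bt also differed at 1 base, with identical encoded proteins in both pairs. The 60 coding bases around each difference, all in exon 3, are shown with the differing base in capitals, from the GENCODE M21 transcripts of GRCm38: Hba-a1 at chr11:32284313-32284372 and Hba-a2 at chr11:32297130-32297189 on the plus strand, Hbb-bs at chr7:103826668-103826727 and Hbb-bt at chr7:103812659-103812718 on the minus strand.
Hba-a1: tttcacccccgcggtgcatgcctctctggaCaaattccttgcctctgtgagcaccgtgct
Hba-a2: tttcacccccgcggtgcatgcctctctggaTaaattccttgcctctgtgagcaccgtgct
Hbb-bs: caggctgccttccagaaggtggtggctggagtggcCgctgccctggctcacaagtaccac
Hbb-bt: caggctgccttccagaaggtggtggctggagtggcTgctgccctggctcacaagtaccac

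A read can therefore match both paralogs. Of all stretches of the length of a sequencing read in the transcript, 48.3% of those of Hba-a1 were found without a mismatch in Hba-a2 and 65.6% of those of Hba-a2 in Hba-a1. For the beta pair, 58.6% of the stretches of Hbb-bs were in Hbb-bt and 50.6% of those of Hbb-bt were in Hbb-bs. How the authors' counting treated reads that match both paralogs is not given in the sources used here, so levels of a single paralog are uncertain, and sums of each pair are given beside the tests.

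The sequences before the transcription starts of the members are shown as well, 120 bases each, from RefSeq (GRCm38.p6). Whether they bear on how the members moved together across libraries was not tested. Capitals mark 4 motifs searched on both strands, CACCC (bound by Krüppel-like factors such as the erythroid Klf1), the CCAAT box, the TATA-type motif ATATAA, and GATAA (bound by GATA factors). RefSeq places some starts elsewhere than the gene coordinates given above, so that the stretches of Hba-a1 and Hbb-bs lie inside the gene by those coordinates, and those of Hba-a2, Hbb-bt and Alas2 overlap it in part. The stretches are chr11:32283552-32283671 for Hba-a1 and chr11:32296372-32296491 for Hba-a2, both on the plus strand, chr7:103827929-103828048 for Hbb-bs and chr7:103813924-103814043 for Hbb-bt, both on the minus strand, and chrX:150547297-150547416 for Alas2 on the plus strand.
Hba-a1: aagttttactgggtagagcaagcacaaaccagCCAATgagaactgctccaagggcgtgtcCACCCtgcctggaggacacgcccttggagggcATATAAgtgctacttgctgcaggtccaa
Hba-a2: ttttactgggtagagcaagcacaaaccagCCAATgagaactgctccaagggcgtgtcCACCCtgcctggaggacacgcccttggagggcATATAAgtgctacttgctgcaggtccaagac
Hbb-bs: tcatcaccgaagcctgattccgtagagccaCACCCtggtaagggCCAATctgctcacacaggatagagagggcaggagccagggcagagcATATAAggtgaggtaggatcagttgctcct
Hbb-bt: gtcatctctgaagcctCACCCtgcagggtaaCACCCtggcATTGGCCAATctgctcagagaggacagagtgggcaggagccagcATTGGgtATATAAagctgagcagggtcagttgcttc
Alas2: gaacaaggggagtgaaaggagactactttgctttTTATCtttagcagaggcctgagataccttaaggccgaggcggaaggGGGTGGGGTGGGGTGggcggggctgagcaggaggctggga

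All 4 globin stretches held the first 3 of these motifs, with ATATAA beginning 28 to 31 bases before the start. CCAAT on the minus strand, which reads ATTGG, was found at 2 further places in Hbb-bt, 1 of them directly before the CCAAT of the plus strand and sharing no base with it. The Alas2 stretch held GATAA on the minus strand, which reads TTATC, and 3 times CACCC on the minus strand, which reads GGGTG. It held no match to the other motifs. Among 32851 mouse promoter stretches of the same length, 31.7% held CACCC, 21.3% CCAAT, 10.5% GATAA and 4.47% ATATAA. The alpha stretches were nearly the same sequence, while the longest identical run of the beta stretches was 14 bases.

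Total counts ranged from 11726129 to 41767119 per library. Levels are given as CPM, counts scaled to the library total, with totals adjusted by TMM factors (0.93 to 1.08) computed over all 79 libraries, so that both regions are on one scale. Sums of region markers were higher in the labelled region. The summed level of 6 cortical genes, with Cux2 and Lamp5 the most abundant in the mPFC, was 638 to 820.4 CPM in the mPFC and 142.6 to 234 CPM in the vHipp. Of 6 hippocampal genes, with Zbtb20 and Prox1 the most abundant in the vHipp, it was 260.2 to 583.3 CPM in the mPFC and 583.9 to 1116 CPM in the vHipp, although 1 of them, Wfs1, was higher in the mPFC (LFC 1.45). Of 15 erythroid-restricted genes other than the members, such as Klf1 and Gata1, the sum was only 1.49 to 5.26 CPM in the mPFC and 1.14 to 7.27 CPM in the vHipp. Tal1 and Ermap were the most abundant of these, and Tal1 also acts in endothelium and brain. Klf1 had at most 10 counts and Gata1 at most 1 count in a library of either region, and Rhag was at 0 in all vHipp libraries.

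Hbb-bs was the most abundant member. Per kilobase of gene length, median levels in the mPFC were 69.4 CPM for Hbb-bs, 51.4 CPM for Hba-a1, 9.48 CPM for Hbb-bt, 1.31 CPM for Alas2 and 0.19 CPM for Hba-a2, and in the vHipp they were 41.7, 29.6, 5.70, 0.73 and 0.080 CPM in the same order. This order held in each of the 79 libraries. The following levels are in CPM without division by length.

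Beta-globin Hbb-bs ranged 7.80-fold over the mPFC libraries and 12.1-fold over the vHipp libraries. In the mPFC its lowest, median and highest levels were 42.0, 69.3 and 244 CPM in saline-treated CTRL mice, 41.2, 50.9 and 138.3 CPM in ketamine-treated CTRL mice, 41.2, 55.3 and 170.3 CPM in saline-treated CSDS mice, and 31.3, 49.2 and 118.2 CPM in ketamine-treated CSDS mice. In the vHipp they were 21.2, 28.7 and 64.0 CPM, 17.1, 31.6 and 44.3 CPM, 23.2, 36.5 and 154 CPM, and 12.7, 33.0 and 56.0 CPM in the same order of groups. The ranges of all 4 groups overlapped in both regions, and the highest library of each mPFC group was more than 2 times its group median.

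Alpha-globin Hba-a1 had the same shape. Its mPFC levels were 31.8, 48.1 and 192 CPM in saline-treated CTRL mice, 33.4, 40.0 and 87.95 CPM in ketamine-treated CTRL mice, 32.4, 43.2 and 102.2 CPM in saline-treated CSDS mice, and 21.1, 39.5 and 87.6 CPM in ketamine-treated CSDS mice. Its vHipp levels were 14.3, 22.7 and 45.7 CPM, 13.0, 26.0 and 33.7 CPM, 15.3, 26.0 and 87.7 CPM, and 9.73, 26.7 and 37.6 CPM in that order. Here too no group stood apart.

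Hbb-bt, the less abundant beta gene, reached 5.19, 7.39 and 19.9 CPM in the mPFC of saline-treated CTRL mice, 4.24, 6.62 and 14.9 CPM in ketamine-treated CTRL mice, 3.65, 5.35 and 29.0 CPM in saline-treated CSDS mice, and 3.36, 5.58 and 15.6 CPM in ketamine-treated CSDS mice. In the vHipp it reached 1.76, 3.71 and 6.35 CPM, 1.62, 4.40 and 8.22 CPM, 1.69, 3.26 and 23.2 CPM, and 1.63, 4.30 and 6.47 CPM in that order. The highest library of saline-treated CSDS mice belonged to mouse 4 in both regions.

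Alas2 was low but present in every library, with 23 to 375 counts in the mPFC and 11 to 229 in the vHipp. Its mPFC levels were 2.32, 3.40 and 12.1 CPM in saline-treated CTRL mice, 1.17, 3.08 and 7.25 CPM in ketamine-treated CTRL mice, 2.30, 2.80 and 11.0 CPM in saline-treated CSDS mice, and 1.41, 3.16 and 7.495 CPM in ketamine-treated CSDS mice. In the vHipp they were 1.197, 1.58 and 2.96 CPM, 0.93, 1.74 and 2.93 CPM, 1.14, 2.03 and 10.4 CPM, and 0.60, 1.92 and 3.95 CPM in that order. Hba-a2 could barely be counted, with 0 to 35 counts in the mPFC (7 libraries at 0) and 0 to 5 in the vHipp (12 libraries at 0), so every value given for it rests on few counts.

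**Figure D1:**
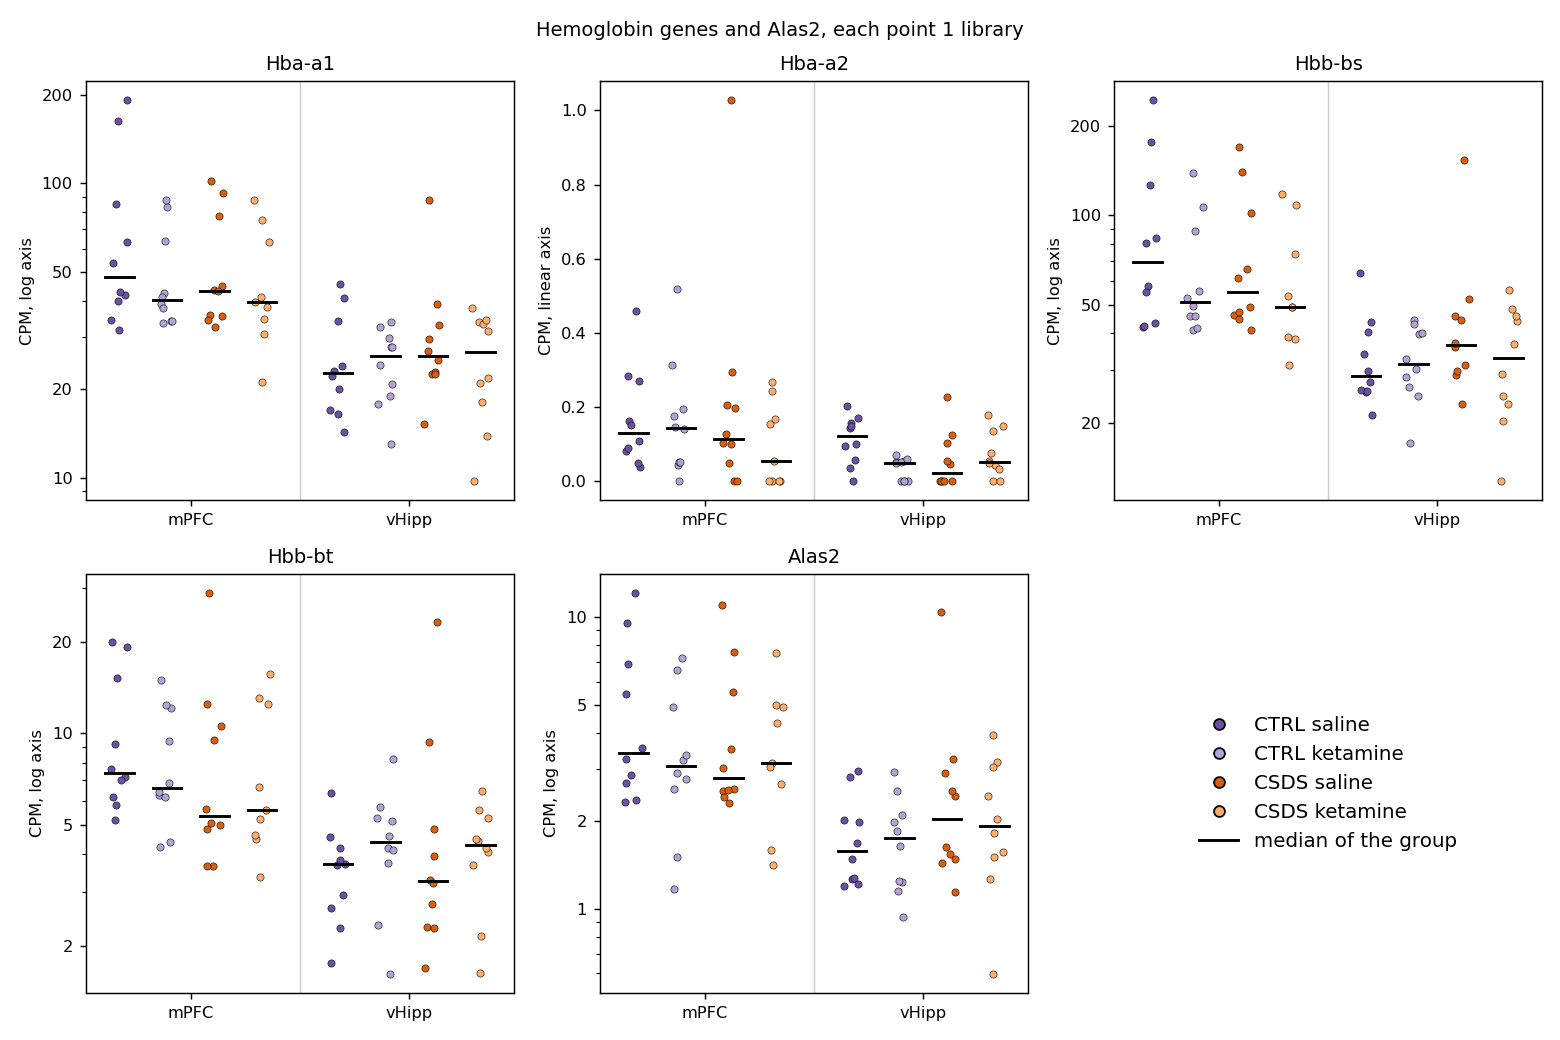
Level of each member in CPM (y axis, logarithmic for 4 genes and linear for Hba-a2) in 39 mPFC and 40 vHipp libraries, with each point 1 library, color for the stress and treatment group and a bar at the group median. The groups overlap within each region, the mPFC points lie higher, and 1 vHipp library of saline-treated CSDS mice (mouse 4) lies above the others of its region for Hba-a1, Hbb-bs, Hbb-bt and Alas2.

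The summed level of the 4 hemoglobin genes was highest at 455.8 CPM, in the mPFC of mouse 24 (CTRL saline), followed by the mPFC of mouse 30 of the same group at 359 CPM and the mPFC of mouse 4 (CSDS saline) at 302.5 CPM. The median was 99.98 CPM in the mPFC and 59.1 CPM in the vHipp. Mouse 4 was high in both regions, with 264.8 CPM in the vHipp, where the other 9 mice of its group had 40.2 to 100.5 CPM. Mouse 24 ranked 2 of 40 in the vHipp, where the other 9 mice of its group had 40.02 to 90.9 CPM. The lowest libraries were the vHipp of mouse 3 at 24.1 CPM and, within the mPFC, that of mouse 17 at 55.8 CPM. Mouse 4 had 233 CPM of mural genes (smooth muscle cells and pericytes of vessels) in the vHipp, within the 134.1 to 275 CPM of the other mice of its group, and 360 CPM of endothelial genes against 225 to 365 CPM. Its vHipp lay outside those mice for hippocampal genes (1116 against at most 937 CPM) and cortical genes (168.7 against at least 174.4 CPM). The same held for erythroid-restricted genes (5.48 against at most 5.15 CPM), neutrophil genes (0.63 against 0.55 CPM) and hemoglobin clearance genes (2607 against 2569 CPM). Mouse 24 had 419 CPM of mural genes in the mPFC against 205 to 447 CPM, and its 6 neuronal genes summed to 5780 CPM, the lowest of the 39 mPFC libraries.

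Within each region the members rose and fell together across libraries, a description without a test because these libraries share groups and scaling. Hba-a1 and Hbb-bs, which lie on different chromosomes, had r = 0.98 over 39 mPFC libraries and 0.96 over 40 vHipp libraries on the log2(CPM + 0.5) scale. Alas2 and Hbb-bs had r = 0.93 in the mPFC and 0.90 in the vHipp. Hbb-bt followed Hbb-bs less closely, with r = 0.84 and 0.82. Hba-a2, at its few counts, had r = 0.63 with Hba-a1 in the mPFC and 0.43 in the vHipp. The ratio of Hba-a1 to Hbb-bs counts stayed between 0.55 and 0.94 in all 79 libraries, a far narrower span than that of either gene.

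**Figure D2:**
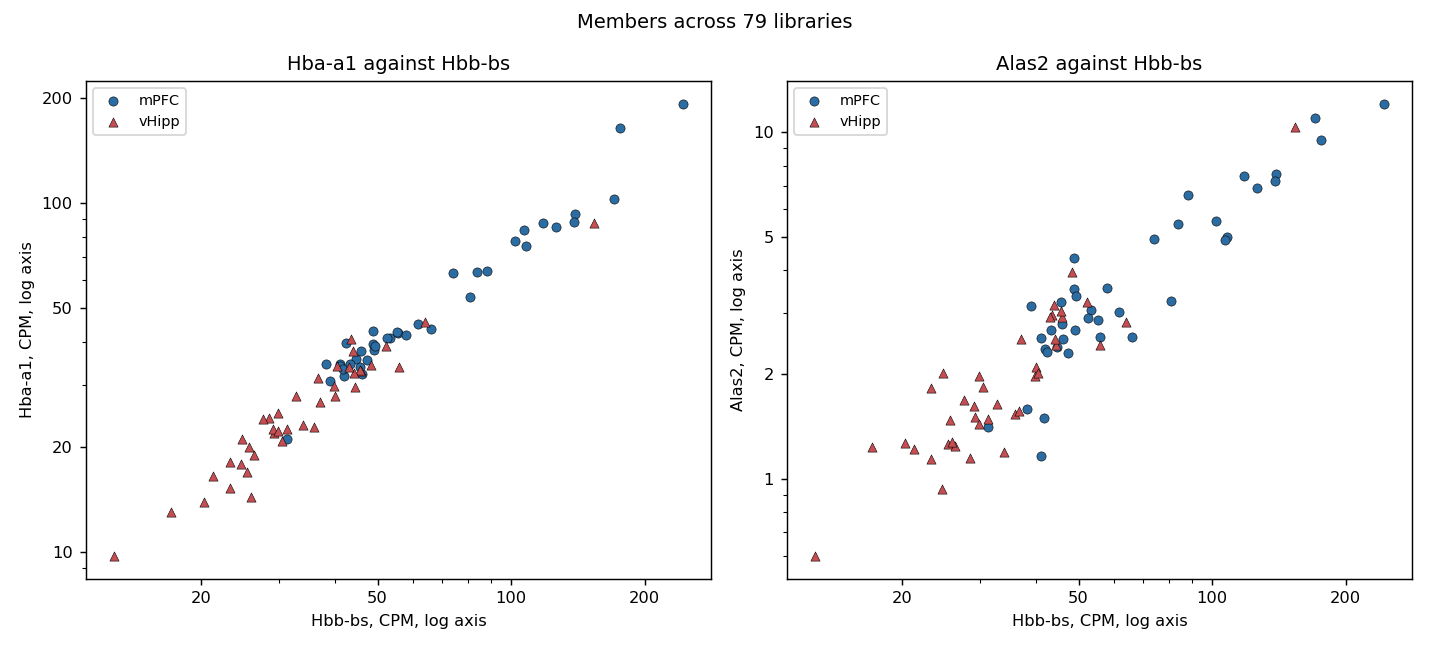
Hba-a1 (left) and Alas2 (right) against Hbb-bs, all in CPM on logarithmic axes, with each point 1 of 79 libraries and its region by symbol. Both genes follow Hbb-bs along 1 line that the regions share (r of 0.96 or more for Hba-a1 and 0.90 or more for Alas2 within a region), with mPFC libraries further up.

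Among genes with a mean of at least 0.5 CPM, the summed hemoglobin genes left out, Alas2 had the highest Spearman correlation with the summed hemoglobin level in both regions, rho = 0.87 among 17397 genes in the mPFC and rho = 0.84 among 17302 genes in the vHipp. It was followed in the mPFC by Btg1 (0.73), Glis3 (0.71), Lhfpl2 (0.71), Tent5c (0.70), Aspn (0.67), Fhod1 (0.67), Gm14964 (0.67), Slc8b1 (0.67), Hspa2 (0.66) and Srgn (0.66). In the vHipp it was followed by Edn3 (0.79), which encodes the peptide endothelin 3, and by Eogt (0.78), Vim (0.76), Ifitm3 (0.75), Timp3 (0.74), Laptm5 (0.72), Pros1 (0.72), Plekhg2 (0.72), Prelp (0.72) and Lamb2 (0.72). The lists of 10 shared no gene. The vHipp genes kept rho of 0.41 to 0.63 in the mPFC, and the mPFC genes had rho of -0.13 (Lhfpl2) to 0.60 (Slc8b1) in the vHipp. Over all ranked genes the median rho was -0.004 in the mPFC and -0.04 in the vHipp.

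Lists of cell type markers were set beside the hemoglobin sum in the same way. The summed level of 7 mural genes had rho = 0.60 with it in the mPFC and 0.79 in the vHipp, and that of 11 endothelial genes 0.48 and 0.59. The sum of 6 neuronal genes, Snap25 and Syt1 the most abundant, had rho = -0.57 and -0.56, while 1 of them, Gad1, had 0.05 and 0.115. For the sum of 15 erythroid-restricted genes rho was 0.47 and 0.32, for 10 neutrophil genes 0.49 and 0.12, for 8 platelet genes 0.43 and -0.24, and for 7 lymphocyte genes 0.10 and 0.34. In the vHipp the most abundant platelet genes, Gp5 and Itga2b, had rho = -0.48 and -0.17, and the others 0.02 (Treml1) to 0.45 (Gp9). Fibroblast and meningeal genes had 0.48 and 0.29, and choroid plexus genes 0.12 and -0.10. The library total had rho = 0.15 and -0.25. The neutrophil and lymphocyte sums were themselves small, with medians of 0.41 and 0.48 CPM in the mPFC and 0.22 and 0.27 CPM in the vHipp, where the neutrophil genes Ngp and Elane were at 0. The part of vessel content in the hemoglobin level was not tested.

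Other genes of the heme pathway were mixed. The 10 other genes of heme synthesis and its mitochondrial carriers, Fech and Alas1 the most abundant, summed to 315 to 375.5 CPM in the mPFC and 305 to 369 CPM in the vHipp, with rho = 0.16 and -0.11. Among 12 genes that clear hemoglobin or heme or handle iron, Fth1 (ferritin heavy chain) and Lrp1 (a receptor that binds the hemopexin and heme complex) were the most abundant. The sum, which these abundant genes dominate, had rho = 0.11 and 0.36. Single genes, named after their values were seen, went both ways. Slc40a1, the iron exporter ferroportin, had rho = 0.56 in the mPFC and 0.54 in the vHipp, Blvrb 0.35 and 0.42, and Slc25a37, the mitochondrial iron importer mitoferrin-1, 0.50 and -0.08. Among the negative values were those of Urod (-0.37 in the mPFC and -0.14 in the vHipp), Uros (-0.36 in the vHipp, 0.05 in the mPFC), Cpox (-0.11 and -0.32), Blvra (-0.35 and -0.14), Hmox2 (-0.34 and -0.27) and, in the mPFC, Hpx (-0.28). Of the other globins, Cygb (cytoglobin, median 64.1 CPM in the mPFC and 77.1 CPM in the vHipp) and Ngb (neuroglobin, 6.70 and 2.65 CPM) were expressed. The embryonic globin Hbb-bh1 and Hbb-bh2 had no count in any library, and Hba-x had none in the mPFC and at most 1 in a vHipp library.

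The first comparison was between regions. All 5 members were higher in the mPFC than in the vHipp, which is 5 of 5 called, while 48.9% of all 31534 genes tested were called in this comparison (7712 higher and 7703 lower in the mPFC). By edgeR's quasi-likelihood test the LFC was 1.05 ± 0.14 (SE) for Hba-a1 (adjusted p = 1.49e-09), 1.02 ± 0.15 for Hbb-bs (adjusted p = 1.89e-08), 0.99 ± 0.18 for Hbb-bt (adjusted p = 1.13e-06), 0.99 ± 0.17 for Alas2 (adjusted p = 6.96e-07) and 1.25 ± 0.32 for Hba-a2 (adjusted p = 0.000739). With the paralogs summed it was 1.05 ± 0.15 for the alpha pair and 1.013 ± 0.15 for the beta pair. In saline-treated CTRL mice alone, which include mouse 24, the LFC was 1.51 to 1.55 for Hba-a1, Hbb-bs, Hbb-bt and Alas2 and 0.65 for Hba-a2, which was not called there (adjusted p = 0.309). Whether the difference between regions varied by group was not tested. In bulk tissue, fewer cells of a type and less RNA per cell cannot be told apart.

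Mouse by mouse the difference went the same way in most mice for 4 of the members and less evenly for Hba-a2. Hba-a1 was higher in the mPFC in 38 of 39 mice, with a median fold of 1.90 (0.67 to 4.21). Hbb-bs and Hbb-bt were higher in 37 mice each, with median folds of 1.89 and 1.97, and Alas2 in 34 mice, with a median fold of 1.76. Hba-a2 was higher in the mPFC in 25 of 39 mice, and in the 24 mice with counts in both regions its fold ranged from 0.29 to 9.41. Mouse 17, a ketamine-treated CSDS mouse, went the other way for Hba-a1, Hbb-bs, Hbb-bt and Alas2, with Hba-a1 at 21.1 CPM in the mPFC and 31.6 CPM in the vHipp. Mouse 24 was at the other end for Hba-a1, with 192 CPM in the mPFC and 45.7 CPM in the vHipp.

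Markers of vessels and of the brain's coverings also differed between the regions. Of 7 mural genes, 5 were higher in the mPFC and none lower, with the smooth muscle genes Tagln (LFC 1.99 ± 0.20), Acta2 (1.91 ± 0.20) and Myh11 (1.35 ± 0.17) leading. Of 11 endothelial genes, 6 were higher and 1, Kdr, was lower, with a median LFC of 0.21. Fibroblast and meningeal genes were higher in 6 of 7 (median LFC 1.04), neutrophil genes higher in 5 and lower in 1 of 9 tested (median LFC 1.22) and lymphocyte genes higher in 4 of 7 (median LFC 1.38), beside a median of 0 over all genes. Platelet genes were higher in 3 and lower in 1 of 8, choroid plexus genes higher in 1 and lower in 4 of 9, and neuronal genes lower in 3 of 6. Their part in the hemoglobin difference was not tested.

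Genes of heme and globin handling were mixed. Among 13 erythroid-restricted genes tested, 1 was higher in the mPFC and 2 were lower, among them Kel (LFC -2.16 ± 0.42), with at most 9 counts in any library. Of 10 heme synthesis genes, Slc25a37 (LFC 0.38 ± 0.02) and Alad were higher, and 5 were lower, among them Uros, Urod, Fech and Alas1. Of 12 clearance and iron genes, Cd163, the macrophage receptor for the hemoglobin and haptoglobin complex (LFC 1.17 ± 0.14), Blvra and Lrp1 were higher, and Fth1, Hpx and Hmox2 were lower. Ngb was higher in the mPFC (LFC 1.14 ± 0.12), and Cygb (-0.31 ± 0.04) and Mb (-1.37 ± 0.34) were lower.

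The second question was whether a mouse that was high in one region was high in the other. Among 39 mice, log2 levels in the mPFC and the vHipp correlated at r = 0.62 for Hbb-bt (rho = 0.49), 0.50 for Hbb-bs (rho = 0.42), 0.45 for Hba-a1 (rho = 0.38), 0.45 for Alas2 (rho = 0.36) and 0.36 for Hba-a2 (rho = 0.20). By permutation of the pairings, with adjustment over 8 measures, p for r was 8e-05, 0.00528, 0.00683, 0.00683 and 0.029, and p for rho was 0.00592, 0.0219, 0.0267, 0.0332 and 0.215. Leaving out the 2 mice farthest from the median in the mPFC lowered r to 0.47, 0.44, 0.34, 0.27 and 0.20. For Alas2 (permutation p = 0.108 with 37 mice) and Hba-a2 (permutation p = 0.245) the relation then rested on those mice. Mouse 4 alone carried part of it, since without mouse 4 r was 0.51 for Hbb-bt, 0.41 for Hbb-bs, 0.39 for Hba-a1, 0.32 for Alas2 (permutation p = 0.0507) and 0.17 for Hba-a2 (permutation p = 0.299). Taken as deviations from the mean of the group and region, r was 0.40 to 0.67 for the 5 members.

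**Figure D3:**
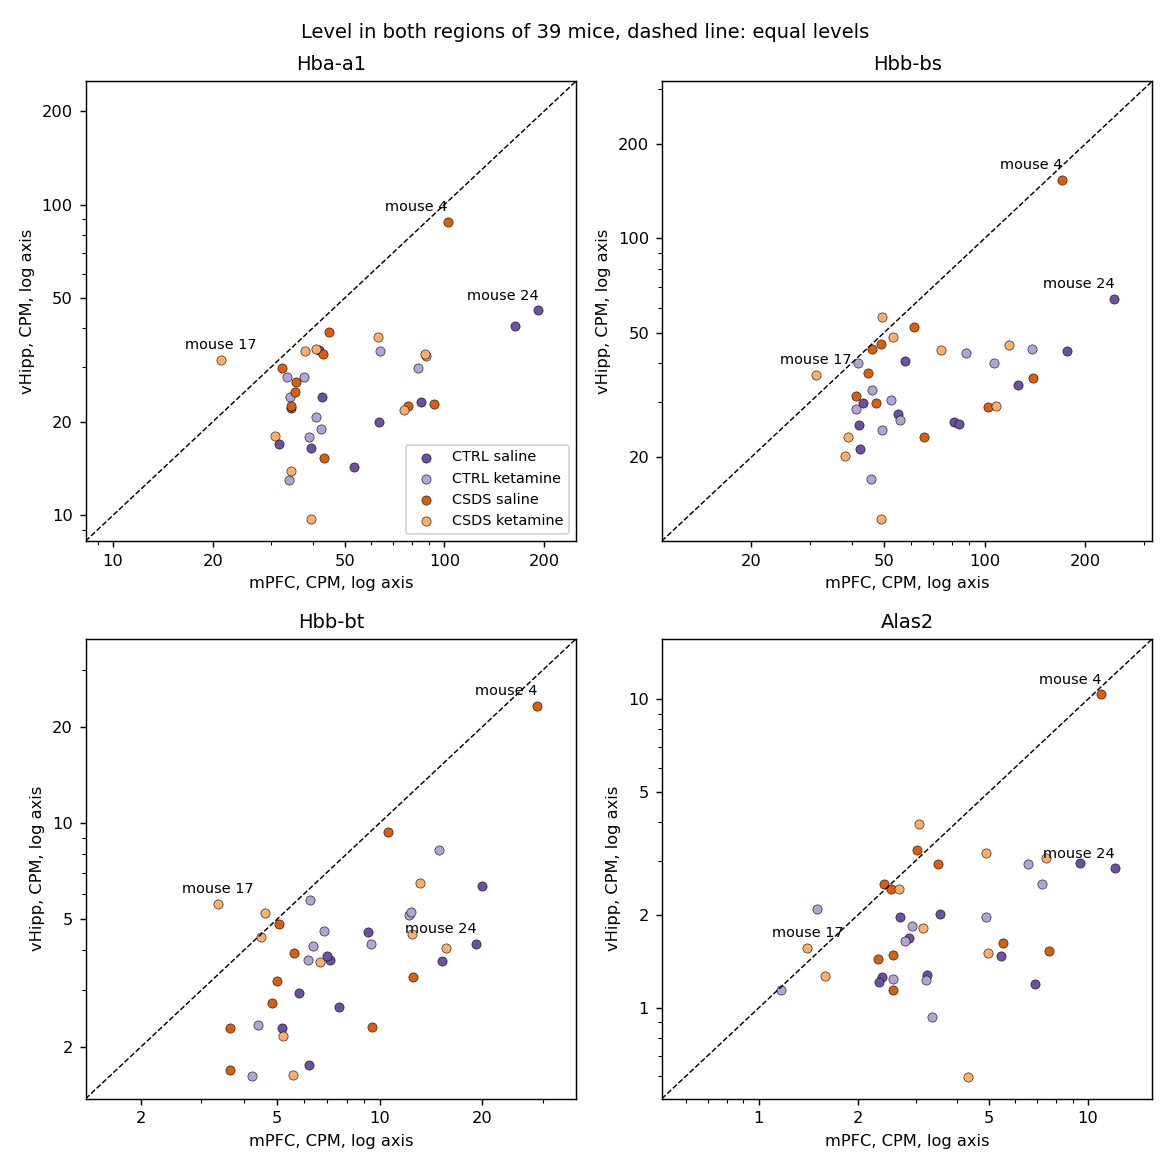
Level of Hba-a1, Hbb-bs, Hbb-bt and Alas2 in the mPFC (x axis) and the vHipp (y axis) of the same mouse, in CPM on logarithmic axes, for 39 mice colored by group, with a dashed line at equal levels. Nearly all points lie below the line, mouse 17 lies above it for all 4 genes, and mouse 4 is the highest in the vHipp for all 4 genes while mouse 24 is the highest in the mPFC for Hba-a1, Hbb-bs and Alas2.

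The balance of the beta genes was followed by the ratio of their counts. The ratio of Hbb-bs to Hbb-bt counts does not depend on how libraries are scaled. Its lowest, median and highest values were 5.65, 8.48 and 18.1 in the mPFC and 5.25, 9.00 and 15.6 in the vHipp. Between the regions of a mouse it correlated at r = 0.83 and rho = 0.76 (permutation, adjusted p = 8e-05 for r, whose raw p of 2e-05 is the smallest that the resamples can give, and 0.00016 for rho). The correlation was r = 0.80 without the 2 mice farthest from the median, 0.83 as deviations from group means and 0.74 in the 9 mice with at least 100 counts of both genes in both regions (exact permutation p = 0.011).

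Mice at both ends, picked by their ratios, serve as examples. Mouse 36 (CTRL ketamine) had 5.91 in the mPFC (95% interval from counting 5.18 to 6.75) and 5.25 in the vHipp (4.39 to 6.28), and mouse 9 (CSDS saline) had 5.84 and 5.59. Mouse 8 (CSDS saline) had 14.7 in the mPFC (12.7 to 17.0) and 15.6 in the vHipp (11.5 to 21.1), and mouse 7 of the same group had 18.1 (14.2 to 22.9) and 13.7 (9.83 to 19.2). Mice of the CSDS saline group lay at both ends, and the intervals of the low and the high mice did not overlap in either region. These intervals cover counting error only, and the mice were picked for their ratios, so the lack of overlap is no test. Of the 10 mice with the lowest ratio in each region, 9 were the same, and of the 10 with the highest, 6 were the same, while no mouse was among the lowest 10 in one region and the highest 10 in the other.

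Between mice, the mean log2 ratio had an SD of 0.41, and the difference between the regions of a mouse had an SD of 0.25, where counting error alone would give 0.23. The regions of a mouse differed by a median of 1.13-fold and by at most 1.44-fold, and the ratio was higher in the mPFC in 15 of 39 mice. Sorted by their mean ratio, the mice formed a series from 5.57 to 15.7, with no gap over 0.14 on the log2 scale. Counting error could blur separate levels, so a continuous series and a few levels cannot be told apart. The mice with the most hemoglobin lay in different parts of this series. Mouse 4 had ratios of 5.88 and 6.62 and mouse 24 had ratios of 12.7 and 15.2. The files were counted on GRCm38, a C57BL/6J assembly, and what the Hbb sequences of these outbred mice contribute to the ratio was not tested.

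For comparison, the other ratios were computed after these values had been seen. The ratio of Hba-a1 to Hbb-bs had an SD between mice of 0.13 and correlated at r = 0.46 between regions (adjusted permutation p = 0.00628), and that of Alas2 to Hbb-bs had an SD of 0.26 and r = 0.38 (adjusted permutation p = 0.0185).

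**Figure D4:**
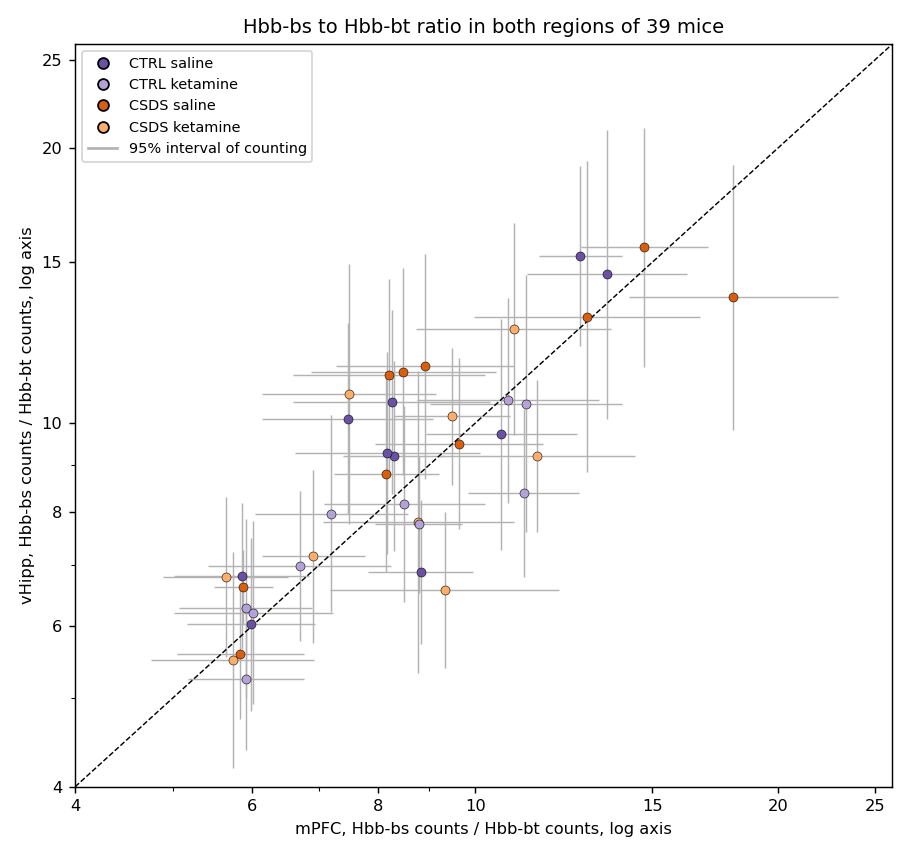
Ratio of Hbb-bs to Hbb-bt counts in the mPFC (x axis) and the vHipp (y axis) of 39 mice on logarithmic axes, colored by group, with gray bars for the 95% interval from counting error and a dashed line at equal ratios. The points follow the line from about 5.6 to 15.7 (mean of both regions). Ketamine-treated mice reach at most 11.5 in the mPFC and 12.7 in the vHipp, and the highest mice are saline-treated.

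The ratio was then compared between groups. In the vHipp its geometric mean was 9.42 in saline-treated and 7.63 in ketamine-treated CTRL mice, a log2 difference of -0.31 ± 0.17 (SE; permutation p = 0.0959, adjusted p = 0.384 over 8 comparisons). In CSDS mice it was 10.3 with saline and 7.97 with ketamine, a log2 difference of -0.36 ± 0.19 (permutation p = 0.0758, adjusted p = 0.384). None of the 8 comparisons passed the test, and the stress differences were 0.04 to 0.13 on the log2 scale. In libraries with at least 100 counts of both genes the mPFC stress differences turned to -0.06 with saline and -0.085 with ketamine. The one with ketamine in the vHipp was then 0.29, from 3 and 4 libraries, and ketamine in CTRL mice gave -0.256 in the mPFC. A comparison of all ketamine-treated with all saline-treated mice, chosen after these values were seen, gave -0.33 in the vHipp (geometric means 7.80 and 9.83, permutation p = 0.0141 within stress groups) and -0.17 in the mPFC (8.06 and 9.05, permutation p = 0.235). The ranges overlapped, from 5.25 to 12.7 with ketamine and from 5.59 to 15.6 with saline in the vHipp.

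The last comparisons were those of stress and ketamine within each region. By edgeR's quasi-likelihood test none of the members passed in any of 14 comparisons, 7 in each region. No gene at all passed in these comparisons, so 0% of 28993 genes in the mPFC and 0% of 28991 genes in the vHipp were called. At an unadjusted p under 0.05 there were 852 to 1681 genes per comparison in the mPFC and 823 to 2816 in the vHipp. limma-voom also called 0 genes, and DESeq2 called 14 in the vHipp for stress averaged over treatments and 0 elsewhere. Of 70 member tests, 6 had an unadjusted p under 0.05, and the smallest adjusted p was 0.437. These p-values measure the spread between mice of this study and take no account of the social groups in which the mice lived.

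In the vHipp of saline-treated mice, the stress comparison gave an LFC of 0.72 ± 0.31 for Alas2, 0.69 ± 0.34 for Hbb-bt, 0.54 ± 0.26 for Hbb-bs and 0.35 ± 0.25 for Hba-a1, with edgeR adjusted p of 0.866, 0.889, 0.889 and 0.92. Hba-a2, at 0 to 5 counts, had -0.84. The first 4 values rested on mouse 4. Without it they were 0.21 ± 0.25, 0.07 ± 0.27, 0.13 ± 0.21 and 0.05 ± 0.22. Without mouse 24 they were 0.82, 0.72, 0.69 and 0.49. For the paralogs summed they were 0.55 ± 0.26 for the beta pair and 0.35 ± 0.25 for the alpha pair. No gene of the other lists was called in this comparison. At an unadjusted p under 0.05, 5 of 9 choroid plexus genes (median LFC 1.74), 4 of 11 endothelial genes (0.23), 2 of 7 mural genes (0.13) and 3 of 6 hippocampal genes (0.36) had a positive LFC. The choroid plexus sum was 17.0 to 36.3 CPM in saline-treated CTRL mice and 20.1 to 713 CPM in saline-treated CSDS mice, of which mouse 4 had 36.3 CPM, with medians of 27.2 and 29.5 CPM. The endothelial sum was 220 to 302 CPM and 225 to 365 CPM. Their part in the member values was not tested.

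In the mPFC the same comparison ran the other way for these genes, with LFCs of -0.46 ± 0.30 for Hba-a1, -0.31 ± 0.32 for Hbb-bs, -0.22 ± 0.34 for Alas2 and -0.18 ± 0.33 for Hbb-bt, all with an edgeR adjusted p of 1. Hba-a2 had 0.44 here. Leaving out either of the 2 mice singled out above changed these values, and no other mouse was left out. Without mouse 24 the values were -0.18, -0.03, 0.03 and -0.02, and without mouse 4 they were -0.61, -0.52, -0.51 and -0.60. The difference between the regions in this comparison was not tested. Of 9 neutrophil genes tested, none was called, and 7 had a negative LFC at an unadjusted p under 0.05 (median LFC -1.98), as did 1 of 7 lymphocyte genes, Cd79b. The neutrophil sum was 0.20 to 9.28 CPM in saline-treated CTRL mice and 0.063 to 1.38 CPM in saline-treated CSDS mice. Their part in the member values was not tested.

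Under ketamine, stress gave LFCs between -0.09 and 0.04 for these 4 genes in the mPFC and between -0.08 and 0.31 in the vHipp, while Hba-a2 had -0.63 and 0.88. Ketamine against saline gave negative values for all 5 members in the mPFC, from -0.59 to -0.10 in CTRL mice. In CSDS mice they were -0.30 to -0.17 for 4 members and -1.17 ± 0.66 for Hba-a2, at 0 to 35 counts. Without mouse 4 they were -0.09 to 0.24 and -0.26. The largest in CTRL mice was that of Hba-a1, -0.59 ± 0.30 (edgeR adjusted p = 0.997), which was -0.30 ± 0.28 without mouse 24. In this comparison 5 of 9 neutrophil genes had a negative LFC at an unadjusted p under 0.05 (median LFC -2.15), and their part was not tested. In the vHipp of CTRL mice, ketamine gave values on both sides of 0, from -1.45 for Hba-a2 to 0.31 for Hbb-bt, with a median of -0.05. In the vHipp of CSDS mice, Hbb-bs had -0.52 ± 0.26 (edgeR adjusted p = 1), which was -0.11 ± 0.21 without mouse 4. There 7 of 9 choroid plexus genes had a negative LFC at an unadjusted p under 0.05 (median LFC -1.90), while the group medians of their sum were 29.5 CPM with saline, where the highest library had 713 CPM, and 26.1 CPM with ketamine. Their part was not tested. Over these 4 comparisons in both regions, the 95% intervals for Hba-a1 and Hbb-bs reached down to -1.18 and up to 1.04.

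The interaction of stress and ketamine had member LFCs of -1.07 to 0.42 in the mPFC and -0.77 to 1.73 in the vHipp. The value farthest from 0 in each region was that of Hba-a2 at its few counts, and without mouse 4 that of Hbb-bt in the vHipp moved from -0.77 to -0.15. At an unadjusted edgeR p under 0.05, 5 of 9 neutrophil genes had a positive interaction in the mPFC (median LFC 3.27). In the vHipp 3 of 9 choroid plexus genes had a negative one (median LFC -1.42), with the library at 713 CPM among saline-treated CSDS mice. The part of these genes was not tested. Averaged over treatments, stress gave 0.51 ± 0.22 for Alas2 in the vHipp (edgeR adjusted p = 0.437), where 9 of 11 endothelial genes (median LFC 0.27), 3 of 7 mural genes (0.17) and 4 of 9 choroid plexus genes (1.03) had a positive LFC at an unadjusted p under 0.05. Their part was not tested. Without mouse 4 the Alas2 value was 0.26 ± 0.18. Averaged over stress groups, ketamine gave negative values for all 5 members in both regions, from -0.64 to -0.25 in the mPFC and from -0.59 to -0.07 in the vHipp, with an edgeR adjusted p of 1 for each. Without mouse 4 the vHipp values were -0.29 to 0.23, with Hbb-bt (0.23) and Alas2 (0.02) positive. The mPFC averages include comparisons given above that moved upward without mouse 4 in CSDS mice and, for Hba-a1, without mouse 24 in CTRL mice. The mPFC averages without these mice are not given here.

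No gene of the other lists was called within a region by edgeR. With ketamine averaged over stress groups, 6 of 9 choroid plexus genes had a negative LFC in the vHipp at an unadjusted p under 0.05 (median LFC -1.26), with the library at 713 CPM in the saline arm. Genes of heme lay nearer to 0, while erythroid-restricted genes had medians near those of the hemoglobin genes in some single comparisons. These medians were 0.36 beside 0.445 for stress with saline in the vHipp, and -0.375 beside -0.41 for ketamine in CTRL mice in the mPFC. For stress with saline in the mPFC they were -0.02 beside -0.24. With ketamine averaged over stress groups, the median LFC was -0.20 over 9 erythroid-restricted genes tested in the mPFC and 0.10 over 11 in the vHipp, and -0.01 over 10 heme synthesis genes in each region, beside 0 over all genes. For stress averaged over treatments, the heme synthesis median was 0.02 in the mPFC and -0.01 in the vHipp, and that of the 12 clearance and iron genes 0.02 and 0.06.

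**Figure D5:**
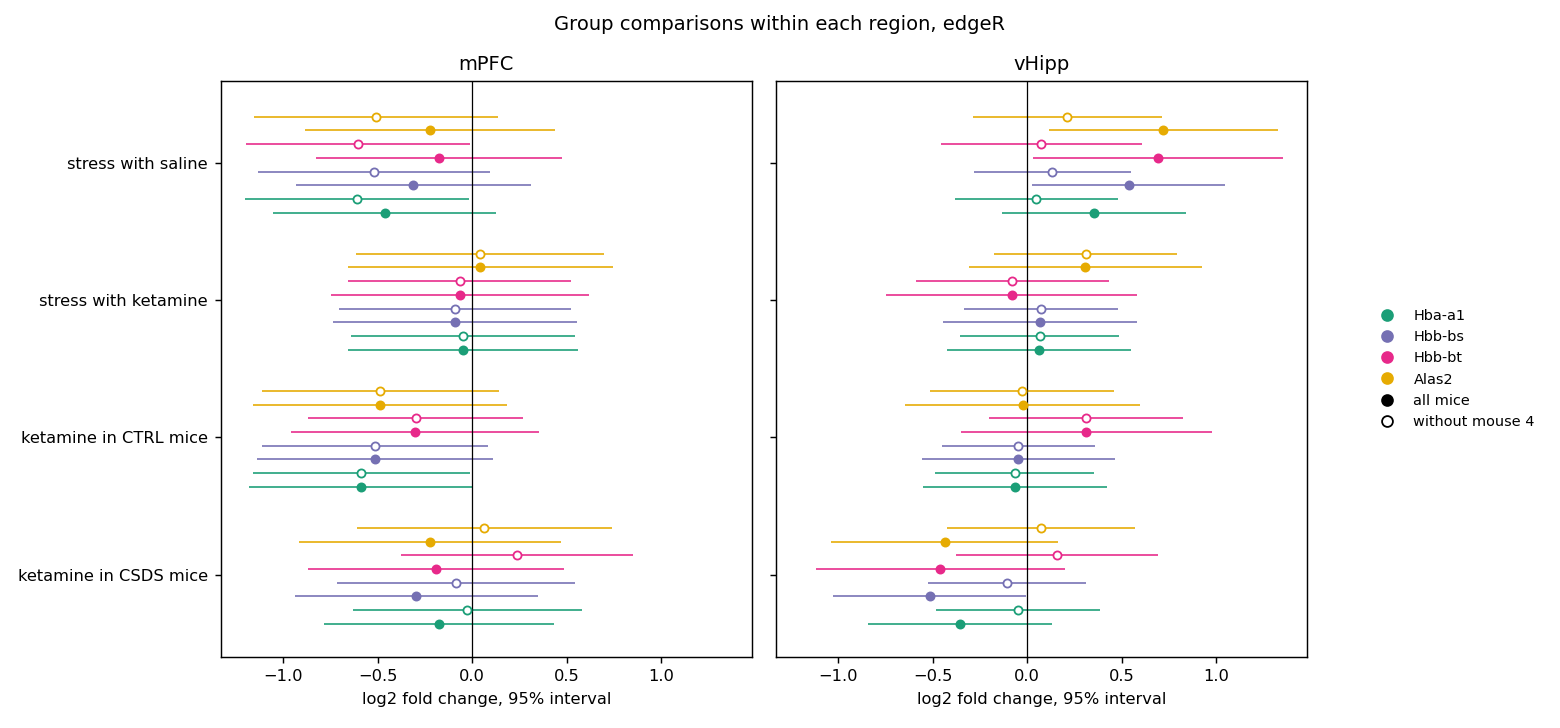
Log2 fold change with its 95% interval (x axis) of Hba-a1, Hbb-bs, Hbb-bt and Alas2 for 4 group comparisons in the mPFC (left) and the vHipp (right), by edgeR with all mice (filled points) and without mouse 4 (open points). No comparison passed the test, and the 4 positive vHipp values for stress with saline (0.35 to 0.72) move to between 0.05 and 0.21 without mouse 4.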

How the data were processed

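The authors prepared stranded mRNA libraries from 100 ng of total RNA, made base calls with bcl2fastq 2.20.0.422 and deposited raw counts per gene of GRCm38, without normalization; the aligner and counting program are not given in the sources used here. One table of all libraries was used. Region, stress group, treatment and mouse number came from the labels. Of 55471 gene identifiers, 55144 matched a symbol, as did 128 of 129 list genes (Ahsp was not analysed here). Samples of low RNA quality and 1 outlier were removed by the authors. The members and lists were chosen with earlier results of these data known.

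Genes with more than 10 counts in total and detected in more than 3 libraries were tested with edgeR 4.0.16 (quasi-likelihood, TMM, all groups of a region in 1 fit, no covariate, two-sided, Benjamini-Hochberg threshold 0.05; R 4.3.3). The study's own model held the social group as a covariate, which the labels used here do not give. Alternatives used DESeq2 1.42.0, limma 3.58.1, other filters and factors, sets of mouse numbers as covariate, and the mouse as block. The mouse number pairs the regions because both libraries come from 1 animal; deviations from group means correlated at r = 0.40 to 0.67 between regions for the 5 members. Single measures used permutation tests (scipy 1.17.1, 100000 resamples, exact for groups under 10). The fits were first tested on simulated data. Correlations used log2(CPM + 0.5). Ratios used counts with no pseudocount. Named genes were the 5 members, the 2 most abundant and the called genes of each list, genes at 0, and the 10 genes per region most correlated with the hemoglobin sum. Other list genes, such as Klf1, Gata1, Blvrb, Slc40a1, Cpox and Cd79b, were named after their values were seen. Genes called in the region comparison are named only in part, and some list genes are not reported here.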

Additional observations from a re-analysis of the deposited data

Results flagged for a closer look

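In groups of 10 mice, and of 9 for the mPFC of ketamine-treated CSDS mice, 7 of 64 sets of values held a mouse far from the others, where chance gives about 3.2. Mouse 4, a saline-treated CSDS mouse, accounted for 6. In the vHipp it had 87.7 CPM of Hba-a1 (next 38.9 CPM), 153.7 CPM of Hbb-bs (next 52.3 CPM), 23.21 CPM of Hbb-bt (next 9.35 CPM) and 10.38 CPM of Alas2 (next 3.25 CPM). In the mPFC it had 28.96 CPM of Hbb-bt (next 12.5 CPM) and 1.028 CPM of Hba-a2 (next 0.29 CPM). The values of 1 library are not independent of each other. Mouse 24, a saline-treated CTRL mouse, had 63.97 CPM of Hbb-bs in the vHipp (next 43.6 CPM). No ratio of members was far from the others in any group.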

How the results depend on the processing

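In the region comparison all 5 members were called under DESeq2, RLE factors, no filter, limma-voom and without mouse 4 or mouse 24. With the mouse as a replicate block the count was also 5 of 5, and the block changed no call (Hba-a1 0.99, Hbb-bs 0.94, Hbb-bt 0.99, Alas2 0.95 and Hba-a2 1.2). Only saline-treated CTRL mice gave 4 of 5, with Hba-a2 at 0.65 (adjusted p = 0.309) and the other 4 at 1.51 to 1.55, and filterByExpr of edgeR removed Hba-a2 and called the other 4. No member was called in the 14 comparisons within regions under any setting; DESeq2 gave no adjusted p to members for stress averaged over treatments in the vHipp. The agreement between regions lost its threshold for Hba-a2 without mouse 4 (r = 0.172), without mouse 24 (0.317) and without the 2 mice farthest from the median (0.197), and for Alas2 without mouse 4 (0.319) and without those 2 mice (0.269); the other 25 values for members stayed past it, as did all 5 for the ratio. The log2 difference of the Hbb ratio turned to -0.06 for stress with saline and to -0.085 for stress with ketamine in mPFC libraries with at least 100 counts of both genes, while ketamine against saline over both stress groups gave -0.334 in the vHipp; the causes were not tested. That depth left 2 libraries in some vHipp groups, which gave no value in 3 comparisons. Leaving out a mouse, summing paralogs and pooling stress groups were chosen after seeing the data. Hba-a2 had only 0 to 35 counts per library, and how far shared reads with Hba-a1 set that number was not tested.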
